A study of Mus musculus with 8 samples.

Results

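The enzymes that build purine nucleotides de novo were examined in mouse perivascular adipose tissue, the fat that surrounds blood vessels, here dissected from the thoracic aorta. The set holds 10 named genes: Ppat, Gart, Pfas, Paics, Adsl, Atic, Gmps, Impdh1, Impdh2 and Hprt. Of these, 9 had a probe set that the platform annotation assigns to that gene alone, out of 18782 such genes on the array, and Impdh2 was not analysed here. The set was assembled around Paics, which was chosen by its log2 signals in these arrays, because they did not overlap between the groups, and the question was whether the rest of the pathway moves with it. The values of Paics are therefore given as a description, with no test, and counts are also given without it.

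The RictoraP2KO mice lack Rictor, the defining subunit of mTOR complex 2, where Cre recombinase is driven by the aP2 (Fabp4) promoter, and the series title names brain and fat as the sites of deletion. The control mice were Rictorfl/fl, carrying the floxed alleles. All animals were male and 17 to 22 weeks old, were fasted overnight and were killed at 9 am. Each group had 4 samples and each sample 1 Affymetrix array. The labels do not say whether each sample was 1 animal, so the p-values reflect only how far these samples spread, which may be technical.

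De novo synthesis assembles the purine ring step by step on phosphoribosyl pyrophosphate (PRPP), and ends in inosine monophosphate (IMP), from which separate branches make AMP and GMP. Ppat catalyses the committed first step, the trifunctional Gart, then Pfas, Paics and Adsl carry the ring forward, and the bifunctional Atic closes it to IMP. Impdh1 and Impdh2 and then Gmps form the GMP branch, while Hprt recycles hypoxanthine and guanine and so spares the de novo route. In growing cells MYC and ATF4 raise transcription of many of these enzymes, and mTOR signalling is known to promote the pathway.

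Ppat and Paics are neighbours on mouse chromosome 5 and are read in opposite directions from starts that lie 276 bases apart in the RefSeq promoter table. The Ppat start, on the minus strand, has the higher coordinate, so from these starts the genes are read across each other, not apart. Their promoter windows do not overlap. These promoter windows are shown because the genes, though adjacent, gave different values below, and that of Atic because it is the other measured enzyme whose window holds the E-box CACGTG, a motif bound by MYC and by the clock activators. Each window runs from 250 bases before to 50 bases after the RefSeq start (GRCm38.p6), 5′ to 3′ on the strand of the gene, with the E-box in capitals. The Paics window is chr5:76951052-76951351 on the plus strand, the Ppat window chr5:76951529-76951828 on the minus strand and the Atic window chr1:71556906-71557205 on the plus strand.
Paics: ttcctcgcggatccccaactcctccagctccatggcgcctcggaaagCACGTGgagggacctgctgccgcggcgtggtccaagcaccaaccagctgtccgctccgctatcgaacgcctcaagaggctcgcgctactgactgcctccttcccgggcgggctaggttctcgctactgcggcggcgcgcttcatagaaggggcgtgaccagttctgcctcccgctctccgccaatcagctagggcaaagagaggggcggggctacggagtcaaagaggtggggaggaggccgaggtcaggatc
Ppat: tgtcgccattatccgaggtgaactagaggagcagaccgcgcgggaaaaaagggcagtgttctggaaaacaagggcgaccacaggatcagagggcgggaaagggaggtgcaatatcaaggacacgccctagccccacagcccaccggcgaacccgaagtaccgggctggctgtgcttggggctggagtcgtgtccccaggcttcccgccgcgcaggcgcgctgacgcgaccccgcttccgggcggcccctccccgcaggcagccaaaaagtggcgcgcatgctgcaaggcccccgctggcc
Atic: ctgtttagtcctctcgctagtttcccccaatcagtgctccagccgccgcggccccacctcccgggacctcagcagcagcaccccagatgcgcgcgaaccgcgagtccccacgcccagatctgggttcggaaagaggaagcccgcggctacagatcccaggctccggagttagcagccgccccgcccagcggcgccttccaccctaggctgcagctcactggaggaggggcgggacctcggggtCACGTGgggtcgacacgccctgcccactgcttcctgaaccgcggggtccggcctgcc

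The E-box starts 203 bases before the Paics start and 7 bases before the Atic start. These letters are not in the Ppat window, which does not reach the Paics window. Of the 10 windows that the table gives for 9 of the members, 3 hold CACGTG (Paics, Atic and the unmeasured Impdh2), against 7.15% of all 32817 windows of the same length. A CCAAT box (CCAAT, either strand) is in 4 of the 10, those of Paics, Atic, Gart and Impdh2, against 37.4% of all windows. The GC box GGGCGG, also searched on both strands, is in all 10, against 35.6% of all windows, and no 2 of these motifs overlapped. GC content was 65.7% for Paics, 66.7% for Ppat and 69.7% for Atic, where the median window had 52.7%. Each of these 3 windows held 27 CpG (C followed by G), against a median of 7. CACGTG and GGGCGG each contain a CpG, so the shares of all windows are not a comparison matched for composition. Impdh1 also has more than 1 of the 10 windows. A match to letters is a description and not evidence of binding, and Pfas had no entry.

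The tissue label was checked first. Of 13 measured adipocyte markers 12 had a mean above the array median of 3.76 on the log2 scale, as did all 11 brown fat markers, and the uncoupling protein gene Ucp1 lay between 11.3 and 12.01 in the 8 arrays. The signal of Rictor itself stood at 6.68 ± 0.08 in arrays labelled RictoraP2KO and 6.54 ± 0.06 in controls (SD, n = 4), so it was not reduced (difference 0.145, SE 0.063; limma adjusted p = 0.685). Probe positions relative to the deleted part were not examined, so every direction here rests on the labels. The arrays also differed in signal of other tissues, shown by the mean deviation of each marker list from its 8-array mean. Lung epithelial markers stood at 2.25 in control replicate 2, neuron markers at 1.2 in control replicate 3 and skeletal muscle markers at 1.05 in RictoraP2KO replicate 2, and these are the 3 arrays left out together below. The mean of the cardiac muscle markers was lowest in RictoraP2KO replicate 1 (-1.21) and highest in RictoraP2KO replicate 2 (1.54). In some lists the group means differed in the same direction: 12 of 12 macrophage, 10 of 10 B cell and 10 of 10 T cell markers had a higher mean in the RictoraP2KO arrays (median differences 0.31, 0.29 and 0.20), and 13 of 13 neuron markers a lower one (-0.25). Not every array of a group shared this. The macrophage mean was lowest of all in RictoraP2KO replicate 3 (-0.27), and B cell and T cell markers stood highest in RictoraP2KO replicate 2 (0.83 and 0.39). For neuron markers the control arrays other than replicate 3 lay between -0.21 and -0.07, against -0.29 to -0.13 in the RictoraP2KO arrays. Summed linear signals, RictoraP2KO against control, were 1605 to 2603 against 1564 to 1952 for macrophage, 122 to 332 against 122 to 179 for B cell, 90.4 to 139 against 83.2 to 102 for T cell and 106 to 134 against 123 to 419 for neuron markers. Their part in the differences of Paics, Pfas and the other members was not tested. In this bulk tissue, fewer cells of a type and less RNA per cell cannot be told apart.

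**Figure D1:**
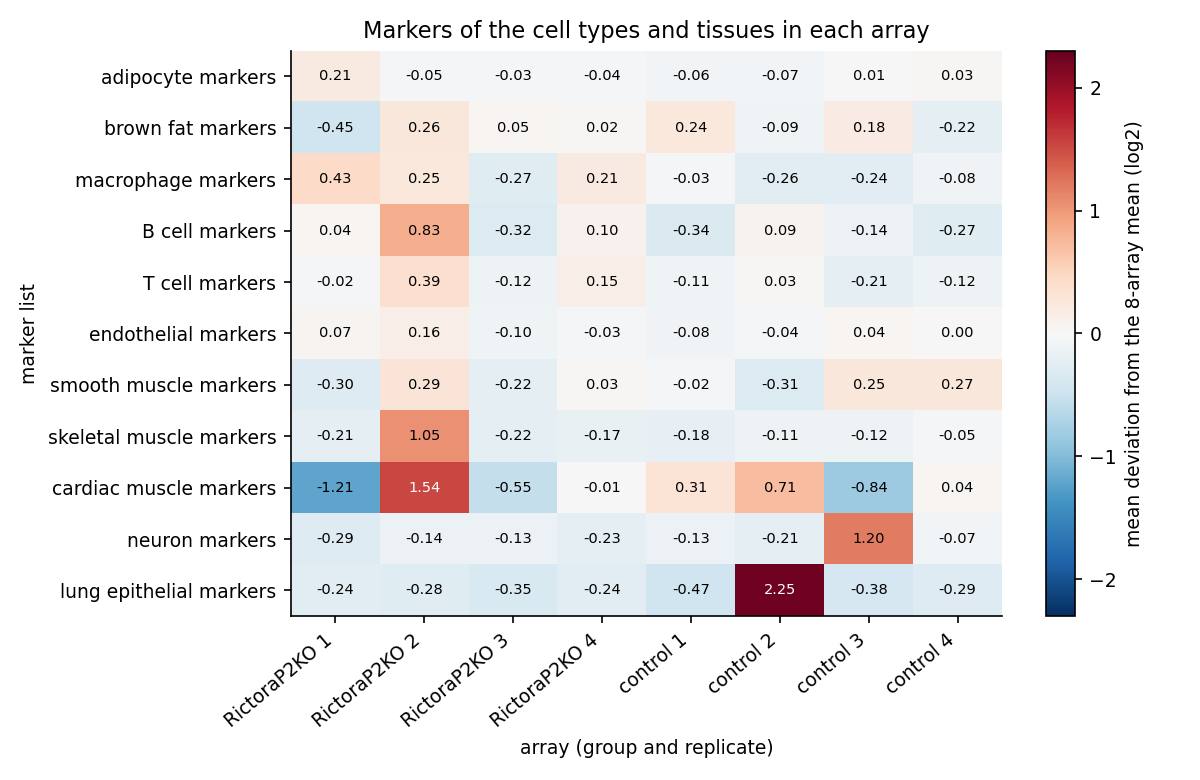
Mean deviation (log2) of each marker list from its mean over 8 arrays, 1 column per array (group and replicate) and 1 row per list, with the value printed in each cell. Single arrays stand apart for lung epithelial (2.25), neuron (1.2) and skeletal muscle markers (1.05), while adipocyte markers stay between -0.07 and 0.21.

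Paics was lower in the arrays labelled RictoraP2KO, and the other enzymes of the pathway differed in both directions. Pfas, which acts earlier in the same route, had the opposite sign. The other 7 measured enzymes had differences of either sign whose 95% intervals included 0. Values below are log2 RMA signals, mean ± SD with n = 4 arrays per group, and a difference is RictoraP2KO minus control on that scale, from a limma fit to all 28371 probe sets.

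Paics encodes a bifunctional enzyme that carboxylates the imidazole ring and then attaches aspartate to it. Its signal was 9.72, 9.53, 9.63 and 9.59 in RictoraP2KO replicates 1 to 4 and 9.94, 9.86, 9.98 and 10 in control replicates 1 to 4. Every RictoraP2KO array lay below every control array, with 0.15 between the nearest values, which is what the gene was picked for. The means were 9.62 ± 0.08 and 9.95 ± 0.06, a difference of -0.33 (SE 0.062), or -20.3% on the linear scale. Over the 8 omissions of 1 array the difference ran from -0.36 to -0.30, and without RictoraP2KO replicate 2 and control replicates 2 and 3 it was -0.32. The sign in these omissions was fixed by the choice of Paics for groups without overlap, so they are a description too. A second probe set assigned to Paics was dim, below the array median in all 8 arrays. It differed by -0.18 (SE 0.079), and its groups overlapped (2.96 to 3.17 against 3.15 to 3.41).

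Pfas, which uses glutamine to form the amidine that precedes ring closure, was the only other measured enzyme whose groups did not overlap. It stood at 5.22, 5.19, 5.17 and 5.11 in RictoraP2KO replicates 1 to 4 and at 4.95, 4.99, 4.78 and 4.92 in control replicates 1 to 4. All 4 RictoraP2KO arrays were above all 4 control arrays, the reverse of Paics. The means were 5.17 ± 0.05 and 4.91 ± 0.09, a difference of 0.26 (SE 0.064). This did not pass (limma, unadjusted p = 0.00287 and adjusted p = 0.605). Leaving out single arrays gave 0.22 to 0.29, and leaving out the 3 arrays named above gave 0.23. As the groups do not overlap, no omission can change the sign, so these values are a description.

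**Figure D2:**
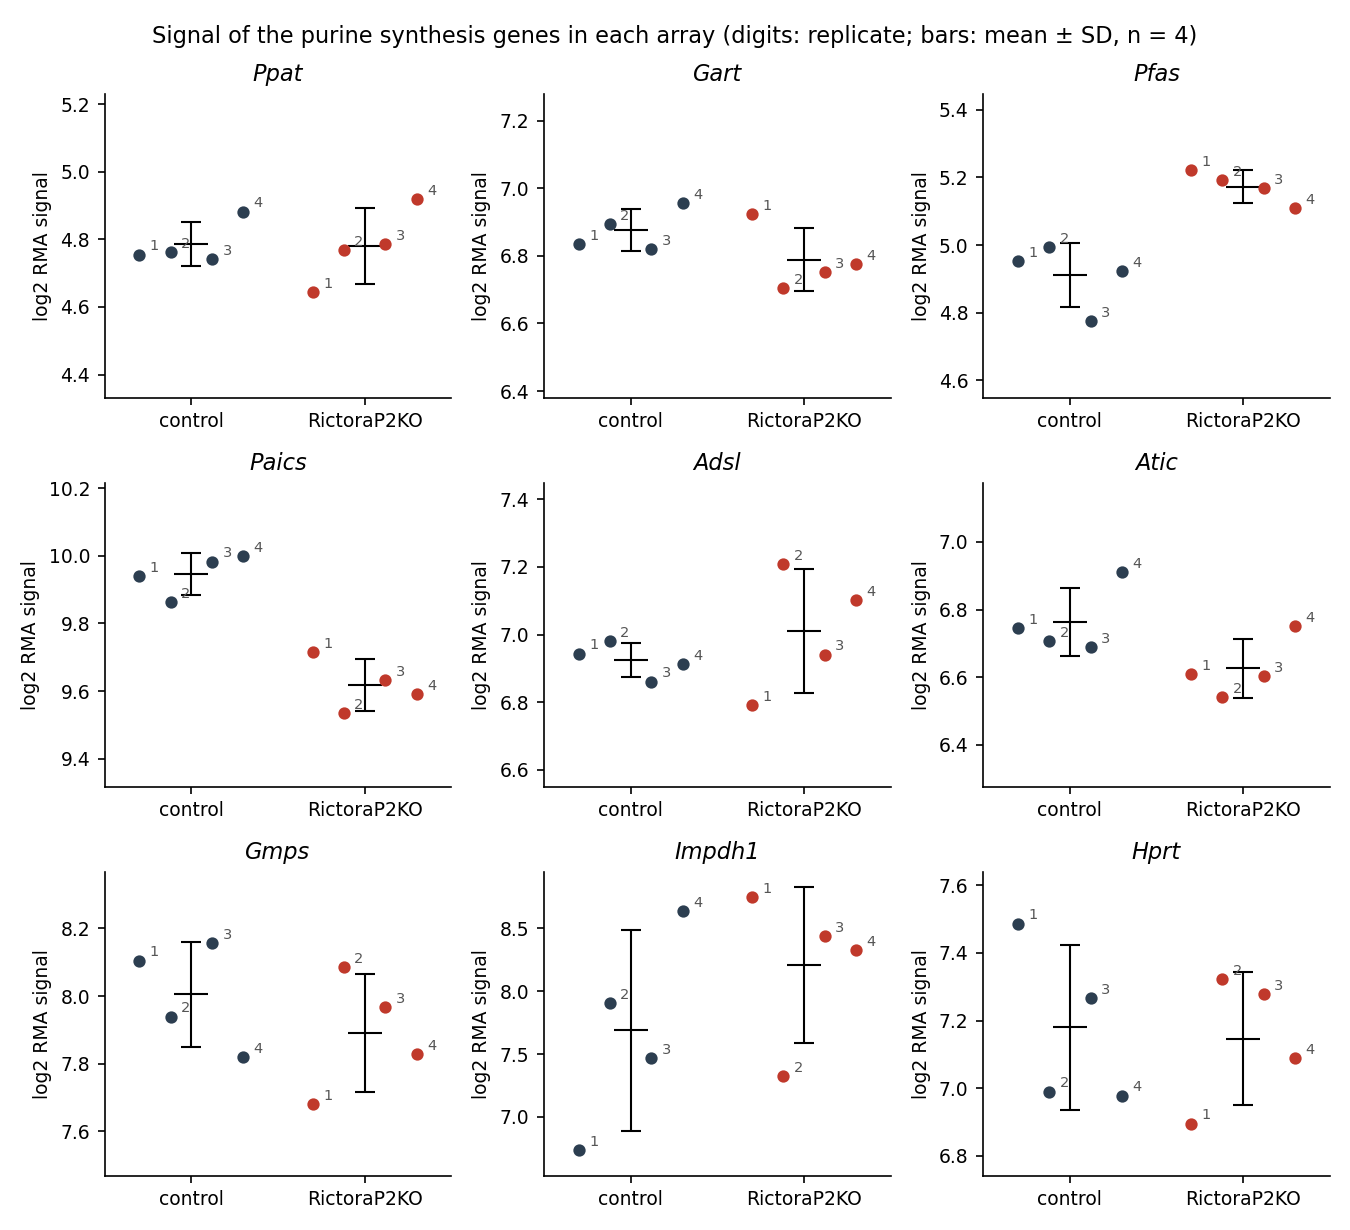
Log2 RMA signal (vertical axis) of the 9 measured genes in each array, control in dark blue and RictoraP2KO in red, with the replicate number beside each point and the mean ± SD (n = 4) as bars. Axes do not start at 0 and cover the same span in every panel except that of Impdh1, which is wider. The groups separate for Paics (9.62 against 9.95) and, the other way, for Pfas (5.17 against 4.91), and overlap in the other 7 panels.

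Ppat, the neighbour of Paics and the committed step of the route, was at almost the same level in both groups. Its signal was 4.64, 4.77, 4.79 and 4.92 in RictoraP2KO replicates 1 to 4 and 4.76, 4.76, 4.74 and 4.88 in control replicates 1 to 4. The control values lay within the range of the RictoraP2KO values. The difference was -0.01 (SE 0.071), with a 95% interval from -0.17 to 0.16 (limma adjusted p = 0.992). The interval of Paics was -0.47 to -0.19, but its size was favoured by its selection, so the gap between the neighbours is a description and was not tested.

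Gart, which catalyses 3 of the early steps, and Atic, which closes the ring to IMP, were nearer to Paics in sign. Gart stood at 6.92, 6.71, 6.75 and 6.78 in RictoraP2KO replicates 1 to 4 and at 6.84, 6.90, 6.82 and 6.96 in control replicates 1 to 4. RictoraP2KO replicate 1 lay within the control range and the other RictoraP2KO arrays below it. The difference was -0.09 (SE 0.066; limma adjusted p = 0.807), with -0.13 without RictoraP2KO replicate 1 and -0.06 without RictoraP2KO replicate 2. Atic stood at 6.61, 6.54, 6.60 and 6.75 in RictoraP2KO replicates 1 to 4 and at 6.75, 6.71, 6.69 and 6.91 in control replicates 1 to 4. Here RictoraP2KO replicate 4 alone reached the control values. The Atic difference was -0.14 (SE 0.073; limma adjusted p = 0.739), with an interval from -0.30 to 0.03 and -0.09 without control replicate 4.

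Adsl encodes adenylosuccinate lyase, which acts directly after Paics and again in the AMP branch. It stood at 6.79, 7.21, 6.94 and 7.10 in RictoraP2KO replicates 1 to 4 and at 6.94, 6.98, 6.86 and 6.91 in control replicates 1 to 4. The control arrays lay close together inside the wider RictoraP2KO range, and the difference was 0.09 (SE 0.091; limma adjusted p = 0.855). Leaving out RictoraP2KO replicate 2 gave 0.02, leaving out RictoraP2KO replicate 1 gave 0.16, and it was 0.0165 without the 3 arrays named above.

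In the GMP branch, Impdh1, the rate-limiting dehydrogenase of guanine nucleotide synthesis, varied more between arrays than any other measured member. It stood at 8.75, 7.32, 8.44 and 8.33 in RictoraP2KO replicates 1 to 4 and at 6.73, 7.91, 7.47 and 8.64 in control replicates 1 to 4. The range of 2.02 is 4.04-fold on the linear scale and the groups overlapped widely. The SD within groups was 0.71, which placed Impdh1 at the 99.3 percentile of all genes, while that of the other 8 members lay between 0.07 and 0.22. Its difference of 0.52 (SE 0.418; limma adjusted p = 0.817) had an interval from -0.43 to 1.47 and ran from 0.20 without control replicate 1 to 0.84 without control replicate 4. It was 0.82 without the 3 arrays named above. Impdh1 was highest in RictoraP2KO replicate 1 and control replicate 4, the arrays with the lowest brown fat marker means (-0.45 and -0.22), and lowest in control replicate 1 and RictoraP2KO replicate 2, those with the highest (0.24 and 0.26). The genes of that list did not move as 1. In RictoraP2KO replicate 1, Elovl3 had its lowest value of the 8 arrays (6.84) and Ebf2 its highest (9.3). The summed linear signal of the 11 measured brown fat markers of 12 listed ran from 14725 to 18582 in the RictoraP2KO arrays and from 15244 to 18789 in the control arrays, and its part in the Impdh1 values was not tested.

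Gmps, which aminates xanthosine monophosphate to GMP, stood at 7.68, 8.09, 7.97 and 7.83 in RictoraP2KO replicates 1 to 4 and at 8.11, 7.94, 8.16 and 7.82 in control replicates 1 to 4. The groups overlapped and differed by -0.12 (SE 0.107; limma adjusted p = 0.839), a value that ran from -0.045 without RictoraP2KO replicate 1 to -0.18 without RictoraP2KO replicate 2. The salvage enzyme Hprt stood at 6.90, 7.32, 7.28 and 7.09 in RictoraP2KO replicates 1 to 4 and at 7.49, 6.99, 7.27 and 6.98 in control replicates 1 to 4. Its difference was -0.03 (SE 0.137; limma adjusted p = 0.974) and was above 0 when RictoraP2KO replicate 1 (0.05) or control replicate 1 (0.07) was left out. Both genes had their lowest value in RictoraP2KO replicate 1.

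**Figure D3:**
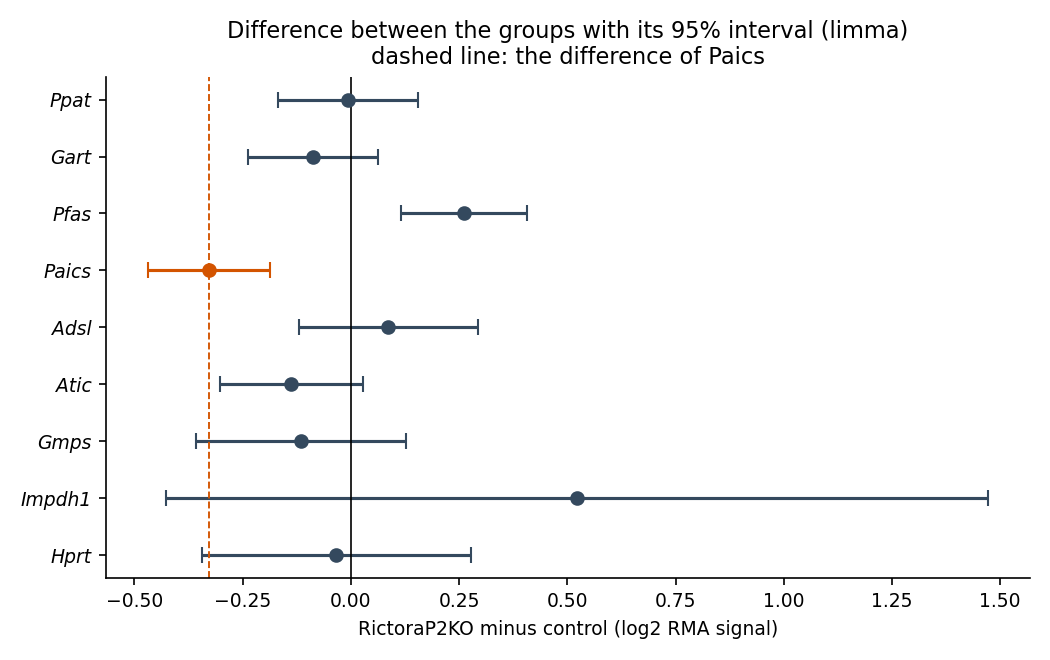
Difference between the groups (horizontal axis, log2 RMA signal, RictoraP2KO minus control) with its 95% interval from limma for the 9 measured genes, listed from the first enzyme to the salvage enzyme. The dashed line marks Paics at -0.33, shown in orange as a description, and the intervals of Ppat, Gart, Adsl, Atic, Gmps, Impdh1 and Hprt include 0.

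Over the set, 6 of the 9 measured enzymes had a difference below 0, against 53.2% of all genes, and the median was -0.03 against -0.01 for all genes. Without Paics, 5 of 8 were below 0, with a median of -0.02. No member passed the adjusted threshold in limma, where 0.00532% of genes and 0.00352% of probe sets did. Of the 8 members other than Paics, 0 were lower and 1 higher (Pfas) at an unadjusted p under 0.05, where 3.56% and 2.92% of all genes were, or 6.48% in either direction. Their groups were without overlap in 0 lower and 1 higher (Pfas), where 2.07% of genes were lower and 1.5% higher, or 3.57% in either direction. All 9 had signals above the array median in every array, which is not a detection limit.

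Whether the enzymes vary with Paics between arrays of the same group was asked separately. The choice of Paics used its values and favours a small spread within groups (SD 0.07, at the 10.7 percentile of all genes), but not which array of a group held which value, and that order is what the permutation below exchanges. For each array the deviation from its group mean was taken, and Paics was set against the other 8 measured members over 8 arrays, and every rearrangement of the arrays within their groups gave an exact permutation p, two-sided. Adsl had the strongest relation, and it was inverse. Pearson's r was -0.88 (exact permutation p = 0.00694, adjusted over the 8 relations 0.0556) and Spearman's rho -0.86 (exact permutation p = 0.00694, adjusted 0.0556). RictoraP2KO replicate 1 was farthest from the median of Paics, and RictoraP2KO replicate 2 and control replicate 2 tied for the next place. The r of Adsl was -0.70 without both RictoraP2KO arrays, -0.90 without RictoraP2KO replicate 1 and control replicate 2, and lay between -0.96 and -0.78 when single arrays were left out. It did not pass after adjustment. The highest Adsl and the lowest Paics value of the RictoraP2KO arrays were both in replicate 2, and the lowest Adsl and highest Paics value in replicate 1. These arrays also had the highest and the lowest mean of the cardiac muscle markers (1.54 and -1.21), and its part in the relation was not tested.

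The remaining 7 relations were weaker, with exact permutation p-values for Pearson's r from 0.155 to 0.620 and adjusted values from 0.551 to 0.620. Gart had an r of 0.63 (rho 0.49), which was 0.05 without RictoraP2KO replicates 1 and 2 but 0.65 without RictoraP2KO replicate 1 and control replicate 2. Impdh1 had 0.53 (rho 0.59), with 0.20 and 0.68 under the same omissions, and Atic 0.30 (rho 0.41), with 0.28 and 0.36. The values were -0.49 for Gmps (rho -0.49), -0.32 for Hprt (rho -0.50), -0.26 for Ppat (rho -0.32) and -0.23 for Pfas (rho -0.18). In that order they were 0.10, 0.20, 0.13 and -0.53 without RictoraP2KO replicates 1 and 2, and -0.51, -0.46, 0.08 and -0.31 without RictoraP2KO replicate 1 and control replicate 2. The values of Gart, Impdh1, Gmps and Hprt thus depend on which of the tied arrays is left out, and the tie was treated this way after the data were seen. Exact permutation p-values for these rho values ran from 0.163 to 0.681, adjusted 0.456 to 0.681. For the neighbour Ppat no relation to Paics within groups was detectable with this number of arrays.

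**Figure D4:**
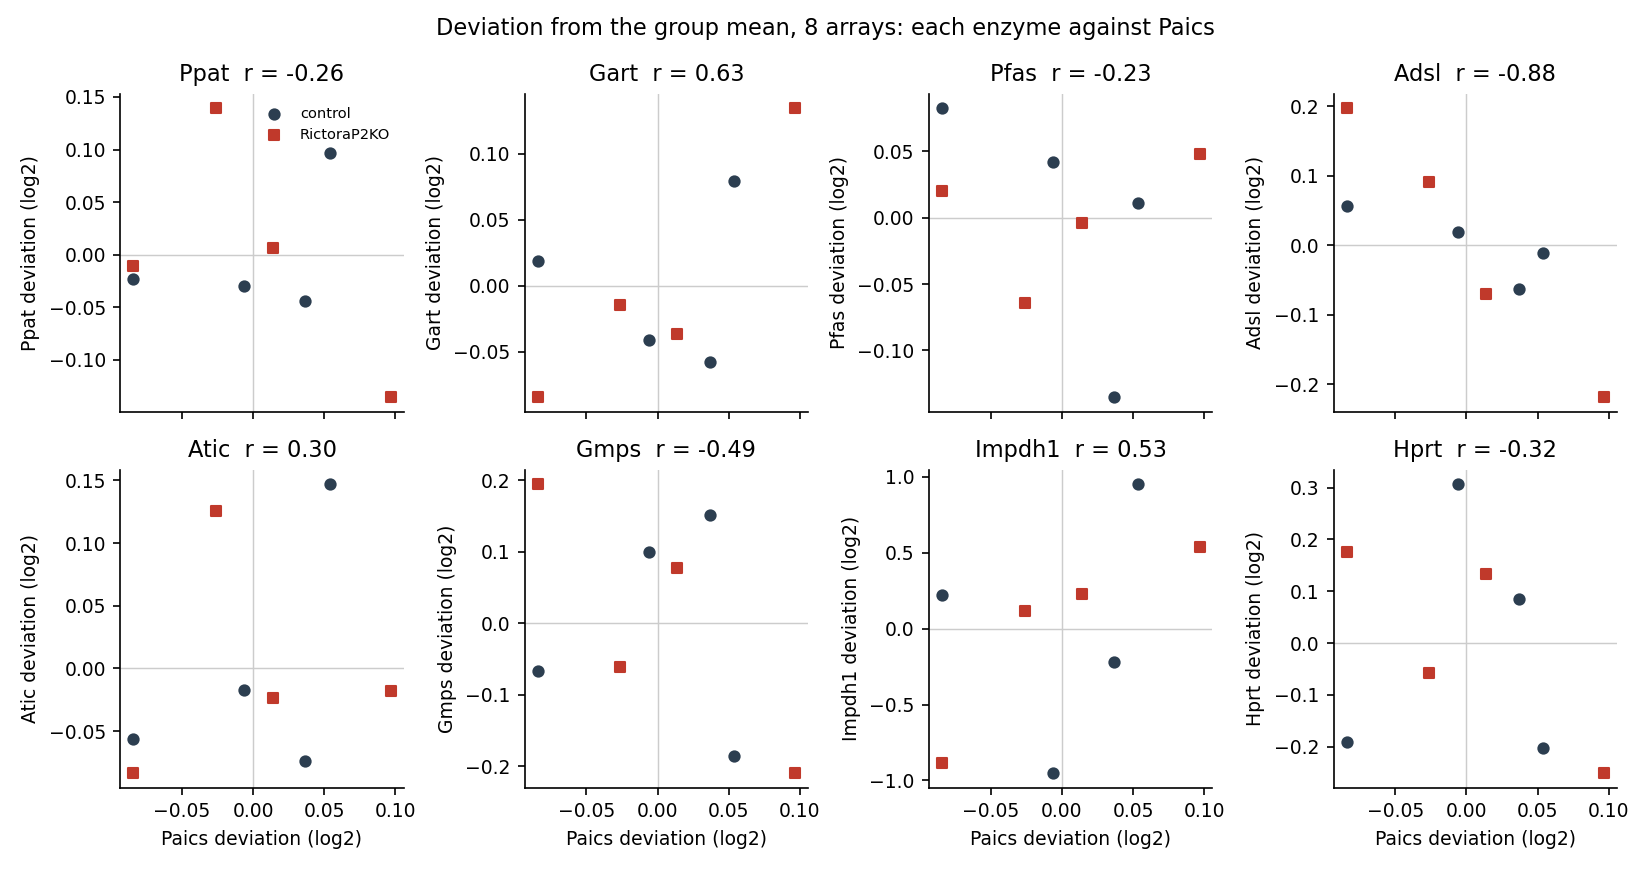
Deviation of each of 8 enzymes from its group mean (vertical axis, log2) against that of Paics (horizontal axis, log2) in 8 arrays, control as dark circles and RictoraP2KO as red squares, with Pearson's r above each panel; vertical scales differ. Adsl is lower where Paics is higher (r = -0.88), while the other panels show looser clouds with r between -0.49 and 0.63.

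Among 17579 named genes, those whose within-group deviations were most like those of Paics over the 8 arrays were Tert (r = 0.99), Grik2 (0.99), Bora (0.98), Ftmt (0.98) and Tram2 (0.96). The mean signals of the first 4 lay between 2.01 and 3.00, below the array median, and none is an enzyme of this pathway. With so many genes and 8 arrays such values are a description only.

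The genes that feed and drain the route were described by lists. PRPP supply had 2 of 5 measured genes below 0 and a median of 0.0050. Prps1 and Prps2, the PRPP synthetases, differed by 0.03 and 0.01, and the smallest unadjusted p-values belonged to Prps1l1 (-0.19, at a signal of 1.78 against 1.98, far below the array median) and to Prpsap1 (0.09), which associates with the synthetase. For the AMP branch and the nucleotide kinases 10 of 11 genes were below 0, against 53.2% of all genes, with a median of -0.17. Adss, adenylosuccinate synthetase, which makes the AMP branch substrate of Adsl, stood at 7.41, 7.44, 7.69 and 7.70 in RictoraP2KO replicates 1 to 4 and at 7.71, 7.83, 7.79 and 7.75 in control replicates 1 to 4. Its groups came within 0.02 of each other without overlapping. That held for 1 of 11 genes in this list, where 2.07% of all genes were lower without overlap. Adss differed by -0.21 (SE 0.082, limma adjusted p = 0.668), or -0.13 without RictoraP2KO replicate 2 and control replicates 2 and 3. The lack of overlap fixed the sign of the latter. The kinase Ak4 differed by -0.21 (SE 0.092; limma adjusted p = 0.681).

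Salvage genes other than Hprt had 6 of 8 below 0 and a median of -0.05, with the nucleoside transporter gene Slc29a2 at -0.32 (SE 0.138) and Aprt, which recycles adenine, at -0.13. The 14 measured genes of interconversion and breakdown had 8 below 0 and a median of -0.05, with 0 at an unadjusted p under 0.05. Guanine deaminase (Gda) differed by 0.33, adenosine deaminase (Ada) by 0.16 and Xdh, which makes urate, by 0.12. None of these passed in limma.

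De novo purine synthesis takes formyl groups from folate. In the list of folate and serine supply, 10 of 17 genes were below 0 with a median of -0.01. Shmt1, the cytosolic enzyme that moves a carbon from serine to folate, was the gene of this list whose groups did not overlap, 1 of 17 where 2.07% of all genes were lower without overlap. It stood at 5.92, 5.98, 5.99 and 5.82 in RictoraP2KO replicates 1 to 4 and at 6.12, 6.24, 6.25 and 6.48 in control replicates 1 to 4. All RictoraP2KO arrays were lower than all control arrays. The difference was -0.35 (SE 0.083), and this did not pass (limma adjusted p = 0.605). The folate dehydrogenase gene Aldh1l1 differed by -0.54 with an SE of 0.371.

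The list for pyrimidines holds genes of the parallel de novo route and also the salvage kinases Uck1, Uck2 and Uckl1, all of which had differences below 0. It had 6 of 9 genes below 0 and a median of -0.14. That median was -0.04 without RictoraP2KO replicate 1 or control replicate 4, -0.06 without RictoraP2KO replicate 2 and -0.08 without control replicate 1. Uckl1 and Umps differed by -0.24 and -0.22, and 0 of the 9 had an unadjusted p under 0.05. Regulators around MYC and ATF4 had 6 of 14 below 0 and a median of 0.01. Myc itself differed by 0.26 (SE 0.215) and Atf4 by 0.20 (SE 0.270), while Mxd1 and Mxi1, antagonists of MYC, differed by -0.30 and -0.26. The Atf4 difference rested on RictoraP2KO replicate 2 (7.02). The other RictoraP2KO arrays lay between 5.70 and 5.81 for this gene, and the control arrays between 5.73 and 5.98. Of 16 MYC targets outside the route 7 were below 0, with a median of 0.01, and Ldha and Ncl had the smallest p (-0.17 and 0.12). Proliferation genes, 15 of 19 with a mean below the array median, had 6 below 0 and a median of 0.04, with Mki67 at 0.45 and Rrm1 at -0.14. Of the 113 genes in these 9 lists 0 passed limma's adjusted threshold, and 6 were lower and 1 higher at an unadjusted p under 0.05. That is 6.19% in either direction, against 6.48% of all genes. The groups of 4 were lower without overlap and of 0 higher, where 2.07% of all genes were lower and 1.5% higher.

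**Figure D5:**
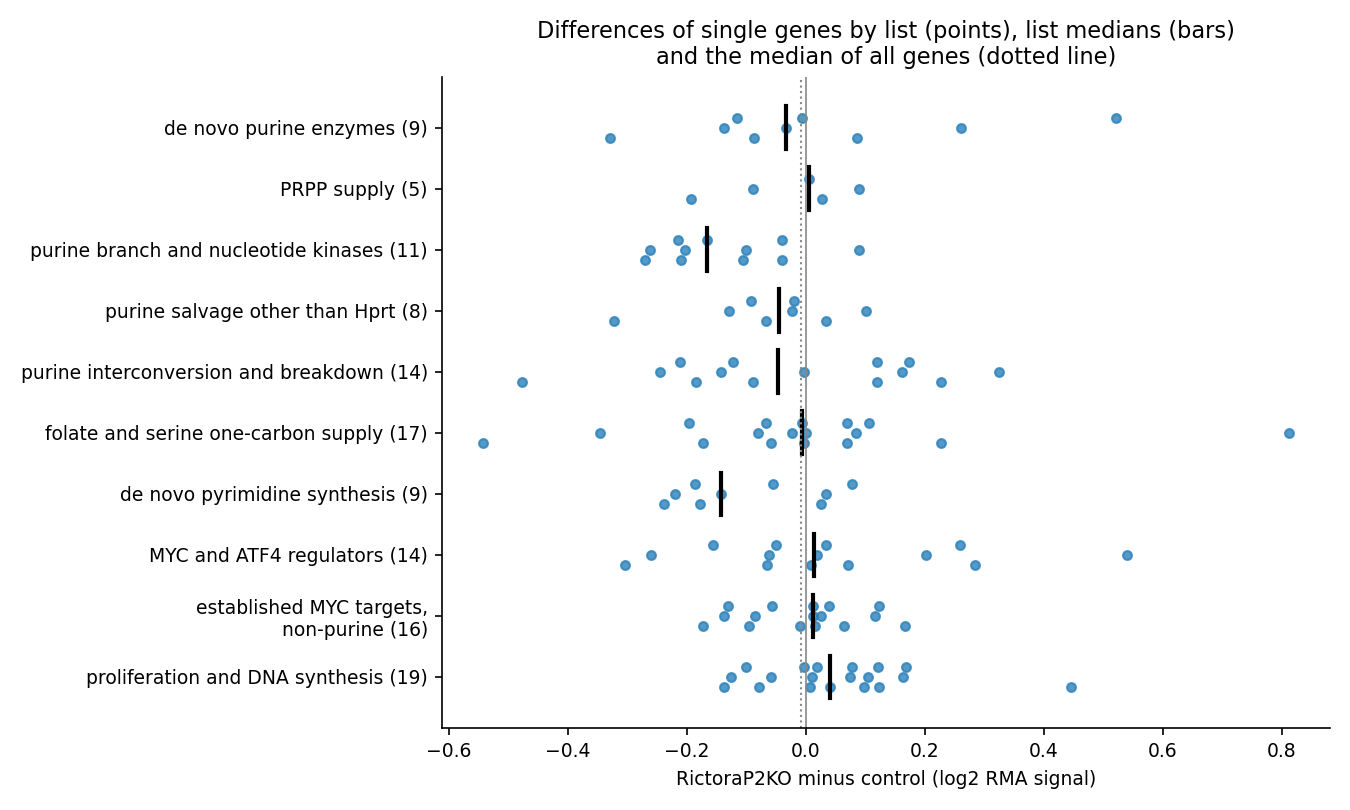
Difference (horizontal axis, log2 RMA signal, RictoraP2KO minus control) of each measured gene as a point, by list, with the number of genes in brackets, the list median as a bar and the median of all genes (-0.01) as a dotted line. The nucleotide kinases (median -0.17) and pyrimidine genes (-0.14) sit left of the dotted line, and the de novo purine enzymes spread from -0.33 to 0.52 around a median of -0.03.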

How the data were processed

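Thoracic perivascular fat of 4 RictoraP2KO and 4 control samples was hybridised to 1 Affymetrix array each, from 5 µg of total RNA per the labels' protocols. The authors deposited log2 values for 28371 probe sets, for which the submitters' processing notes name RMA and Affymetrix Power Tools 1.10.2; sorted values of the same rank lay within 0.03 of each other across arrays, so a difference in total RNA output would not be seen. Signals have no count depth, and the number of arrays limits the precision. Probe sets with 1 symbol (21158; 1881 had several and 5332 none) named 18782 genes, each represented by the probe set with the highest mean. Limma 3.58.1 (lmFit, eBayes, two-sided, Benjamini-Hochberg over all probe sets, threshold 0.05) was fitted in R 4.3.3 without filter or covariate, and checked on simulated data. Replicate numbers were not treated as pairs: 0 of 4 same-numbered pairs had deviations correlated above 0.1. This check cannot exclude that samples were paired.

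The members, the gene lists (241 of 262 entries measured) and the alternatives were chosen with earlier results of these data known. The rule for named genes takes all members, Rictor, up to 4 called genes or otherwise the 2 with the smallest p in each pathway list, and the 5 genes most like Paics within groups, with predicted and unnamed models left out. Prps1, Prps2, Xdh, Uck1, Uck2, Myc, Atf4 and Mthfd2 were named outside it, and marker genes were used for the tissue check. Promoter windows are RefSeq's, GRCm38.p6. The correlation family was planned over 9 genes and run over the 8 measured. Scanner files were not used here.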

Additional observations from a re-analysis of the deposited data

Results flagged for a closer look

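Of 20 checks of a group of 4 arrays over the member probe sets, 2 held a value that stood apart from the other 3 by more than Dixon's 95% critical share of the group's range; chance gives about 1 in 20 groups. Both were in control replicate 4. Ppat stood at 4.88 there, with the other control arrays between 4.74 and 4.76, and without this array the Ppat difference was 0.03 in place of -0.01. The dim second probe set of Paics stood at 3.41 there, with the others between 3.15 and 3.18.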

How the results depend on the processing

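No member passed limma's adjusted threshold in any alternative; with all probe sets of a gene averaged, Paics differed by -0.26. The count of probe sets called across the array was 1, and 0 with the replicate number as a block, without dim probe sets and without the 3 arrays with signal of another tissue; single omissions gave 0 to 5. Each replicate number holds 1 array per group, so a replicate block cannot change a difference, only its SE and p-value. With this block 0 members were called. Of the RictoraP2KO arrays, 0 of 4 correlated best with the control array of the same number. Counting Paics, leaving out single arrays gave 1 to 2 members lower at an unadjusted p under 0.05 in limma and 4 to 6 below 0. Lower without overlap were 1 to 2 (Gart besides Paics without RictoraP2KO replicate 1, Atic besides Paics without RictoraP2KO replicate 4). Groups with fewer arrays overlap less easily, and the share of all genes at each omission is not given here. With all 8 arrays, 3.56% of genes were lower at an unadjusted p under 0.05 in limma and 2.07% lower without overlap. Ppat ran from -0.052 to 0.040 and Hprt from -0.10 to 0.069 over these omissions, and Ppat was 0.0086 with array weights.

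List medians over the omissions ran from -0.081 to 0.040 for the members, -0.047 to 0.045 for the members without Paics, -0.077 to 0.038 for PRPP supply, -0.099 to 0.0070 for salvage, -0.040 to 0.021 for breakdown, -0.056 to -0.0029 for folate and serine supply and -0.18 to -0.035 for pyrimidines. Without the 3 arrays, medians were -0.010 for salvage, 0.011 for breakdown, -0.0415 for MYC and ATF4 regulators and -0.0265 for proliferation; without dim probe sets they were -0.0015 for breakdown and -0.051 for proliferation. Pearson's r with Paics ran from -0.55 to 0.36 for Ppat, -0.59 to 0.10 for Pfas and -0.74 to 0.051 for Hprt over the omissions, and was 0.73 for Pfas and -0.17 for Atic without the 3 arrays, where 5 arrays remain. The causes were not tested.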

Other observations

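Mthfd2, the mitochondrial folate enzyme that supplies formate for purine synthesis and is a target of ATF4, was singled out after its values were seen. It stood at 3.21, 6.56, 3.77 and 4.30 in RictoraP2KO replicates 1 to 4 and at 4.43, 3.33, 3.54 and 3.30 in control replicates 1 to 4. One array, RictoraP2KO replicate 2, lay far above the rest, and the groups overlapped. The difference of 0.81 (SE 0.644; limma adjusted p = 0.815) was 0.11 without that array and -0.10 without the 3 arrays with signal of another tissue. Single omissions of other arrays gave up to 1.23. Shmt1, the cytosolic folate enzyme, differed by -0.40 to -0.28 over the 8 omissions and by -0.39 without the 3 arrays. Adss differed by -0.25 to -0.16 over the omissions. The groups of Shmt1 and of Adss did not overlap, so no omission could change these signs. Mthfd2, Shmt1 and Adss were added to the alternatives after their values were seen.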
